A study of Homo sapiens with 20 samples.

Results

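The amino acid arm of the integrated stress response was followed through 33 genes in cultured human liver cancer cells after a short heat exposure. The genes were the transcription factor ATF4 and 5 further regulators of the same response, 4 groups of its metabolic, transporter and secreted target genes, and 11 cytosolic aminoacyl-tRNA synthetases. They are a list of gene symbols, and all 33 were found among the 26038 symbols of the deposited count table. Of these, 30 had enough counts to be tested in every comparison, and MTHFD2, PYCR1 and FGF21 did not.

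The cell line named for every library is MHCC-97H, which was derived from a human hepatocellular carcinoma, and the 20 libraries form 4 groups of 5. In the first experiment, wild-type cells stayed for 15 minutes in a water bath, at 37 °C in the R-37 group and at 47 °C in the R-47 group, and 24 hours in an incubator followed. The second experiment gave the 47 °C bath and the same 24 hours to a group labelled wild type (NC) and to a group labelled NFS1 knockdown (NFS1). The design text names shRNA as the means of knockdown, and the labels do not say whether NC carried a control construct or whether the knockdown cells were 1 clone. Whether the 5 libraries of a group are separate cultures is not labelled, and a p-value here weighs a difference against a spread that may be only technical. These are bulk samples, so a change in the number of expressing cells and a change in RNA per cell cannot be told apart.

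Libraries held 32219946 to 39689939 counts. NFS1 encodes the cysteine desulfurase that supplies sulfur for iron-sulfur clusters, and it was the gene named as knocked down. Its level per library (CPM, the count scaled by TMM to a common library size over all 20 libraries, in the order of replicates 1 to 5) was 71.5, 72.7, 71.4, 71.9 and 76.0 in NC and 70.7, 65.3, 64.2, 64.0 and 68.3 in the libraries labelled NFS1. The ranges of the groups did not overlap, but the log2 difference of -0.11 (SE 0.05) did not pass edgeR's test (adjusted p = 0.114), so the label is used here as a label only. Replicate 4 of NFS1 stood apart: its median absolute log2 deviation from the other 4 libraries of its group was 0.282 over all tested genes and 0.23 over the 30 tested members. In the other 19 libraries these values were 0.078 to 0.217 and 0.032 to 0.137. Results of the NFS1 comparison are therefore given with and without that library. Of 8 hepatocyte markers, 6 had a mean of at least 1 CPM in R-37 and in R-47, 4 in NC and 3 in NFS1. For such counts of markers, and for the summed markers below, CPM was scaled by library total without TMM. FGB, a fibrinogen chain, had a mean of 53.1 CPM in R-37, 41.9 in R-47, 101.5 in NC and 106 in NFS1. ALB, the albumin gene, had a mean of 14.1 CPM in R-37, 5.10 in R-47, 0.850 in NC and 0.633 in NFS1. TTR, another gene of secreted plasma proteins, had group means between 0.0207 and 0.0501 CPM. KRT19, a bile duct keratin, had 425 CPM in R-37 and 423 CPM in R-47 but 0.794 CPM in NC and 0.651 CPM in NFS1, although all 4 groups carry the same cell line label.

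As background, several kinases sense amino acid shortage, unfolded protein, heme deficiency or viral RNA and phosphorylate the translation factor eIF2, which lowers most protein synthesis but lets the ATF4 message be translated. ATF4 protein, paired with C/EBP-family partners, then switches on genes that import or make amino acids and charge tRNAs, and with DDIT3 (CHOP) it can turn to genes of cell death. Aminoacyl-tRNA synthetases attach each amino acid to its tRNA, and many cytosolic members are classical ATF4 targets. Because ATF4 is controlled mainly at translation, its own mRNA level is an incomplete readout of its activity. In liver cells the same pathway links amino acid supply to the secreted factors GDF15 and FGF21. On GRCh38, ATF4 lies at chr22:39520559-39522686, NUPR1 at chr16:28532708-28538974, PHGDH at chr1:119711934-119744215, VLDLR at chr9:2621787-2660056 and ALDH18A1 at chr10:95605941-95656711, and all are protein-coding.

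ATF4 and C/EBP proteins bind together at a composite element, spelled TGATGNAA here and searched on both strands, which also covers TTGCATCA. Promoter windows of 250 bases before to 50 bases after a start site of the gene, taken from RefSeq (GRCh38.p14), were on hand for 27 of the 33 members. The members without a window were NUPR1, PSPH, SHMT2, PYCR1, LARS1 and YARS1. Some genes have several windows. The element was found in at least 1 window of 10 of the 27 (37%), as in 3.75% of the 18506 genes of the count table with a window. Counted by window, it was in 10 of the members' 39 (25.6%), in 3.62% of all 35116 windows and in 2.89% of the 25252 windows of genes in the count table. Among the synthetase members with a window it was found for 6 of 9 genes (66.7%). Outside the members, it was found for 1 of 10 other cytosolic synthetases and complex scaffolds with a window (10%). The mitochondrial synthetases had it in 1 of 14 (7.14%) and further ATF4 targets in 8 of 19 (42.1%). For genes of eIF2, its kinases and eIF2B it was 1 of 13 (7.69%). A letter match is a description of the sequence and not evidence of binding in these cells. The matches of the 6 synthetases, and those of ASNS, a classical amino acid response gene, and CEBPG, a dimer partner of ATF4, are shown because the comparison of NC with R-47 is later set beside them. Each is 28 bases, 5′ to 3′ on the printed strand, with the element in capitals.
GARS1, glycine, chr7:30594835-30594862, minus strand: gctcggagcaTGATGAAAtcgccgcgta
MARS1, methionine, chr12:57488054-57488081, minus strand: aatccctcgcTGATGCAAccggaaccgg
IARS1, isoleucine, chr9:92293693-92293720, plus strand: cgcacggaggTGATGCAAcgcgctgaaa
TARS1, threonine, chr5:33440957-33440984, minus strand: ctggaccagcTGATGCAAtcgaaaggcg
NARS1, asparagine, chr18:57621805-57621832, minus strand: ctacgctctcTGATGCAAcgccggaatc
CARS1, cysteine, chr11:3057408-3057435, plus strand: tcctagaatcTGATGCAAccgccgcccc
ASNS, chr7:97872459-97872486, minus strand: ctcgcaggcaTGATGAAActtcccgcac
CEBPG, chr19:33374061-33374088, plus strand: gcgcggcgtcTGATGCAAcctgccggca
Counted along the gene, the first base of the element lay at -33 from the start site of the GARS1 window. For the other windows it lay at -4 in MARS1, -13 in IARS1, 3 in TARS1, 15 in NARS1 and -2 in CARS1. All 6 thus lay close to the start site of their window. The element lay at -68 in ASNS and -42 in CEBPG. The start site of a window need not be the outer end of the gene: ASNS spans chr7:97851677-97928441. FGF21 and SLC7A1 held the other 2 matches.

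Levels of different genes were compared only per length, as the FPKM values the authors deposited (mean ± SD, n = 5). In R-37 the synthetases were among the most abundant members: GARS1 at 109 ± 5.28 FPKM and MARS1 at 108 ± 1.72 FPKM were the highest, and their SDs exceed the difference between them. SHMT2, the mitochondrial enzyme that splits serine to glycine, followed at 100 ± 6.17 FPKM, and SLC7A5, the large neutral amino acid transporter, at 99.2 ± 8.11 FPKM. All 11 synthetases lay between 30.8 FPKM (WARS1) and 109 FPKM. ATF4 itself had 38.4 ± 2.03 FPKM and DDIT3 38.2 ± 3.49 FPKM. The length behind the FPKM of ATF4 is 7716 bases, against 2514 exonic bases in the GENCODE v29 annotation, and 4772 against 2414 for CTH. For 10 members, SHMT2 and 9 of the synthetases, it is under 0.67 of the exonic bases, as for MARS1 (2800 against 7028) and GARS1 (2690 against 4152). Shorter lengths raise FPKM, so the order of genes rests on the lengths the authors chose. At the other end were PHGDH (2.40 ± 0.400 FPKM), the first enzyme of serine synthesis from glucose, CTH (1.29 ± 0.233 FPKM), which makes cysteine from cystathionine, VLDLR (0.798 ± 0.127 FPKM), a lipoprotein receptor, and ASNS (0.326 ± 0.0596 FPKM). In NC, PHGDH stood at 10.8 ± 1.32 FPKM, SLC7A5 at 41.1 ± 2.79 FPKM, and NARS1 (87.9 ± 3.89 FPKM) and SARS1 (85.7 ± 3.90 FPKM) were the highest members.

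**Figure D1:**
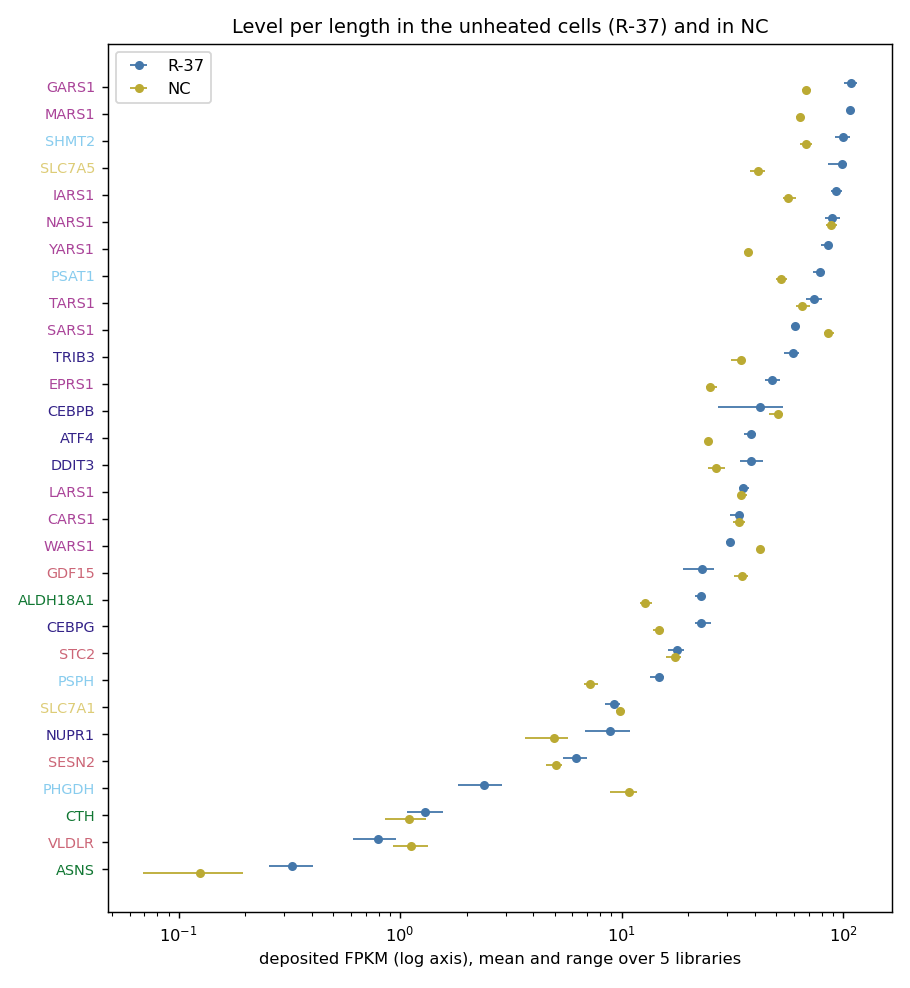
Deposited FPKM of the 30 tested members on a log axis, as the mean and the range over the 5 libraries of R-37 and of NC. GARS1 (109 FPKM) led in R-37 and ASNS (0.326 FPKM) was lowest; PHGDH lay further right in NC and most other members further left.

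Classical targets of the pathway were at or near 0 counts. MTHFD2, a mitochondrial folate enzyme, had 0 counts in 19 of 20 libraries and 3 counts in the other. PYCR1, which makes proline, had 0 counts in 14 libraries and at most 2, and FGF21 had 0 in 15 and at most 2. ASNS, asparagine synthetase, had counts in all 20 libraries but at most 57, with means of 1.18 ± 0.214 CPM in R-37, 1.15 ± 0.324 in R-47, 0.373 ± 0.151 in NC and 0.465 ± 0.265 in NFS1 (SD, n = 5). Of their exonic bases in GENCODE v29, 33.2% for MTHFD2, 29.7% for PYCR1 and 44.6% for ASNS lie in exons of other annotated genes, and ASNS lies wholly within the span of another annotated gene; for FGF21 the overlap is 0, and the median over the 33 members is 0. How HTSeq, the read counter, treated overlaps and strand is not given here, and what overlap does to these counts was not tested. DDIT3 (39.6%, in part with MARS1) and MARS1 (13.3%), CEBPB (11.8%) and WARS1 (10.6%) share exonic bases with other genes as well, and reads of such genes cannot be told apart without strand.

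**Figure D2:**
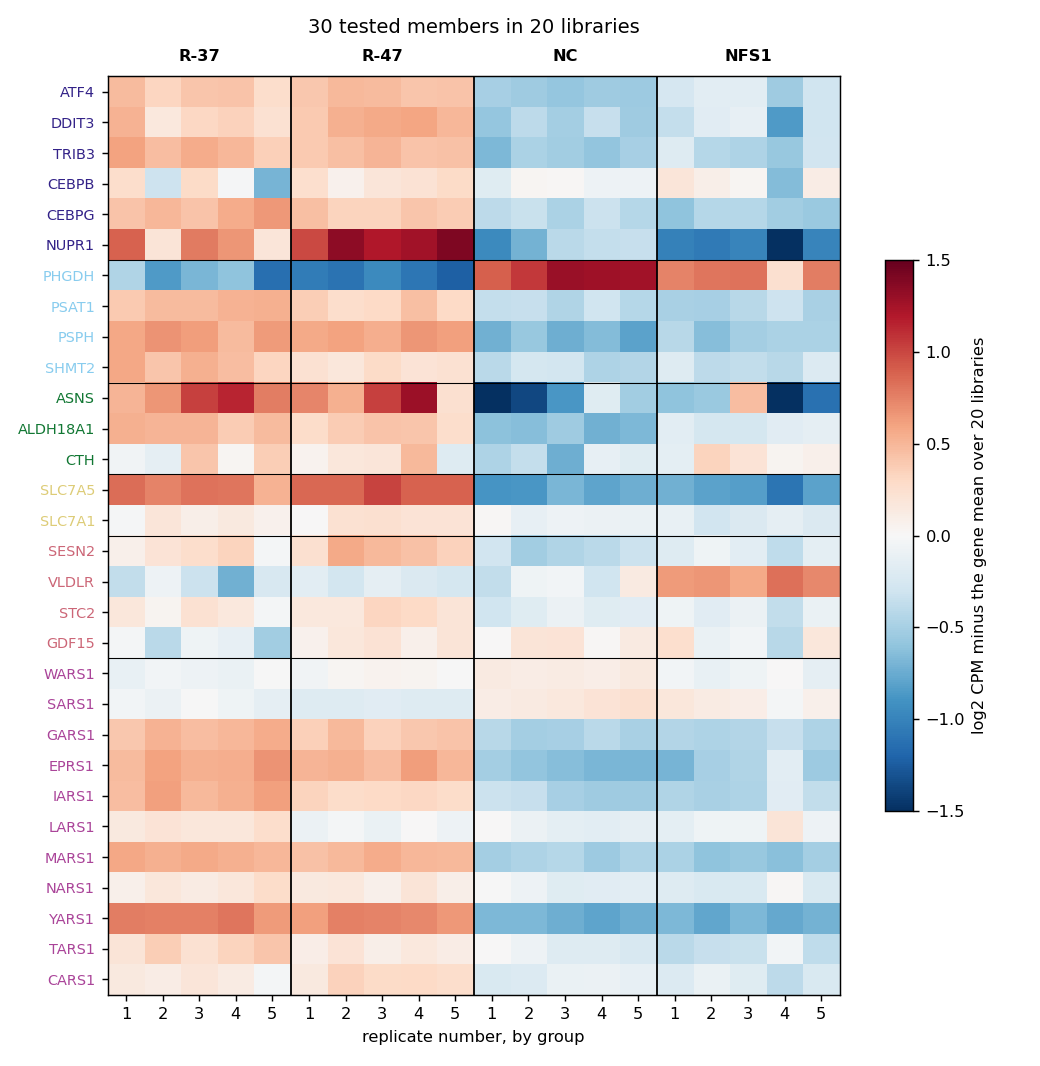
Each row is a tested member and each column a library; colour gives log2 CPM minus the gene's mean over the 20 libraries, with the scale cut at the ends of the colour bar. The first experiment (R-37, R-47) and the second (NC, NFS1) form separate blocks for most members, with PHGDH and SARS1 turned the other way.

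The first comparison asked what remained 24 hours after 47 °C in wild-type cells. Of the 30 tested members, 5 were higher and 7 lower after 47 °C at an adjusted p under 0.05, while 25.1% of the 14344 genes tested were called (11.9% higher, 13.2% lower). For 7 members the libraries of R-37 and R-47 did not overlap, as for 18% of all genes. The median log2 difference was -0.02 over the members and -0.01 over all genes. The 5 that rose were NUPR1, GDF15, SESN2, DDIT3 and CARS1. The 7 that fell were PHGDH, PSAT1 and SHMT2 of the serine and glycine pathway and the synthetases IARS1, LARS1, TARS1 and SARS1. Counted by group, regulators were called 2 higher and 0 lower of 6, and the secreted and other targets 2 higher and 0 lower of 4. Serine and one-carbon enzymes were called 0 higher and 3 lower of 4, and synthetases 1 higher and 4 lower of 11. The groups are small, and the balance of directions moved with the scaling, as given below. ASNS, ALDH18A1, CTH and the transporters SLC7A5 and SLC7A1 were not called. SLC7A5 had 0.16, SE 0.06, adjusted p = 0.0519, its groups did not overlap (635 CPM at most in R-37 and 643.5 at least in R-47), and it was called higher in 11 of the 22 alternatives, among them DESeq2 (adjusted p = 0.038) and limma-voom (adjusted p = 0.0459).

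Among the regulators, ATF4 mRNA was 354, 318.5, 340.2, 342 and 306 CPM in R-37 and 338, 358, 355, 340.3 and 342 CPM in R-47. The ranges overlapped, and the log2 difference of 0.07 (95% interval -0.02 to 0.16) did not pass edgeR's test (adjusted p = 0.307). Scaled only by library size it was 0.14 and passed (adjusted p = 0.0255), as it did in the deposited FPKM. DDIT3, the CHOP factor, was 58.1, 45.2, 50.1, 51.4 and 47.6 CPM in R-37 and 53.0, 58.7, 60.1, 60.9 and 57.3 CPM in R-47. Replicate 1 of R-37 reached into the R-47 range, and the log2 difference was 0.21 (SE 0.07, adjusted p = 0.0348). NUPR1 encodes a small stress-induced nuclear protein and had 65.7, 41.0, 61.5, 56.5 and 40.4 CPM in R-37 against 70.7, 90.2, 82.4, 85.5 and 94.5 CPM in R-47. Every R-47 library lay above every R-37 library, with the widest change among the members: a log2 difference of 0.68 (SE 0.12, adjusted p = 0.000973), or 1.60-fold. CEBPB, a C/EBP-family partner, varied from 63.7 to 126 CPM within R-37 alone, and its log2 difference of 0.26 was not called. TRIB3, a pseudokinase that feeds back on ATF4, had -0.05, and CEBPG -0.12; neither was called.

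GDF15, a secreted stress cytokine, was 51.0, 39.1, 49.5, 47.7 and 36.2 CPM in R-37 and 54.0, 58.5, 60.3, 54.5 and 59.3 CPM in R-47. The groups did not overlap, with a log2 difference of 0.36 (SE 0.09, adjusted p = 0.00604). SESN2, which encodes a leucine sensor of the mTORC1 pathway, rose by 0.25 on the log2 scale (SE 0.08, adjusted p = 0.0317). STC2, a secreted glycoprotein hormone, and VLDLR had log2 differences of 0.12 and 0.13 and were not called.

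In the serine pathway, SHMT2 was 324, 289, 314, 299 and 272 CPM in R-37 and 255, 245, 266, 252 and 254 CPM in R-47. All 5 heated libraries were below all 5 controls, with a log2 difference of -0.23 (SE 0.05, adjusted p = 0.00336). PHGDH went from 20.6 ± 3.54 to 16.1 ± 1.07 CPM (SD, n = 5), a log2 difference of -0.35 (SE 0.10, adjusted p = 0.0221), with overlap because R-37 replicate 5 had only 15.6 CPM. PSAT1, the aminotransferase of the pathway, fell by 0.14 on the log2 scale (adjusted p = 0.0489). PSPH, its last enzyme, had a log2 difference of 0.00 and was not called.

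Among the synthetases, IARS1 was 481, 531, 485.5, 503 and 531 CPM in R-37 and 437, 419.9, 428, 430.0 and 421 CPM in R-47, a log2 difference of -0.24 (SE 0.04, adjusted p = 0.000688). LARS1, for leucine, was 186, 194, 189, 189 and 202 CPM in R-37 and 158, 164, 157, 168 and 159 CPM in R-47, with -0.24 (SE 0.04, adjusted p = 0.000768). In both genes the groups were fully separate. TARS1 had 220.1, 247, 224, 241 and 256 CPM in R-37 and 205, 221.5, 203, 214 and 208 CPM in R-47, with 1 overlapping library on each side and a log2 difference of -0.17 (SE 0.05, adjusted p = 0.0208). SARS1 (serine) fell by 0.12 on the log2 scale (adjusted p = 0.0476), and CARS1 rose by 0.17 (adjusted p = 0.0263). The 6 synthetases not called (GARS1, EPRS1, MARS1, NARS1, WARS1, YARS1) had log2 differences between -0.08 and 0.08.

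NUPR1, GDF15, SHMT2, IARS1 and LARS1 were called under all 22 alternative settings, and the other 7 calls were not. Leaving out 1 library ended the call of SARS1 in 9 of 10 cases and of PSAT1 in 8, the exceptions being R-37 replicate 5 for SARS1 and R-37 replicate 1 and R-47 replicate 4 for PSAT1 (adjusted p up to 0.113 and 0.131). DDIT3 lost its call without R-37 replicate 2 or 3 or R-47 replicate 2, 3, 4 or 5 (adjusted p 0.0522 to 0.0865), CARS1 without R-47 replicate 2, 3, 4 or 5 (0.0549 to 0.0765), SESN2 without R-47 replicate 2, 3 or 4 (0.0648 to 0.0945), PHGDH without R-37 replicate 4 or R-47 replicate 2 or 5 (0.0509 to 0.0611) and TARS1 without R-37 replicate 2 or 4 or R-47 replicate 3 or 5 (0.052 to 0.0656). SLC7A5 became called, at a log2 difference of 0.18, without R-37 replicate 1, 3 or 4 (adjusted p 0.0201 to 0.0488), and CEBPB without R-37 replicate 1 (0.35, adjusted p = 0.0475). When scaled by library size only, the members were called 10 higher and 3 lower, and with offsets for gene length and GC content 3 higher and 12 lower, so the balance of directions moved with the scaling. Summed hepatocyte markers were 96.3 to 116 CPM per library in R-37 and 62.5 to 70.3 CPM in R-47, with 6 of 8 at a mean of at least 1 CPM in both groups. Summed leukocyte markers were 67.7 to 75.2 and 131 to 171 CPM, with CD3E, a chain of the T cell receptor complex, at 0 in R-47 and 1 of 6 markers at a mean of at least 1 CPM. Of 7 tested hepatocyte markers 0 were called higher and 5 lower, and of 2 tested leukocyte markers 1 higher and 0 lower. The part of these in the results was not tested.

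The other lists of the pathway had calls in both directions, where 25.1% of all genes tested were called (11.9% higher, 13.2% lower). Of 25 further ATF4 targets, 4 were higher and 3 lower after heat (median 0.05). They included PPP1R15A, the eIF2 phosphatase subunit of the feedback loop (0.55, SE 0.06, adjusted p = 1.86e-05), and ALDH1L2, a mitochondrial folate enzyme (-0.60, SE 0.10, adjusted p = 0.000466). Of 15 eIF2 kinases, eIF2 subunits and eIF2B genes, 1 rose (EIF2B1, 0.15, adjusted p = 0.0224, and 0.0542 to 0.0737 without R-37 replicate 4 or R-47 replicate 2) and 1 fell (EIF2S3, -0.24, adjusted p = 0.0051). Of the 12 remaining cytosolic synthetases and complex scaffolds, 1 rose and 2 fell, with AARS1 (alanine) at 0.16 and KARS1 (lysine) at -0.13. The call of KARS1 was present in 8 of 23 settings and, with 1 library left out, only without R-37 replicate 4 or R-47 replicate 2 (adjusted p 0.0522 to 0.102 in the other 8 fits). That of AARS1 ended without R-47 replicate 3, 4 or 5 (adjusted p 0.0513 to 0.0663). Of 17 mitochondrial synthetases 1 rose and 3 fell, with HARS2 at 0.29 (SE 0.05, adjusted p = 0.000723) and NARS2 at -0.44 (SE 0.06, adjusted p = 0.000119).

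**Figure D3:**
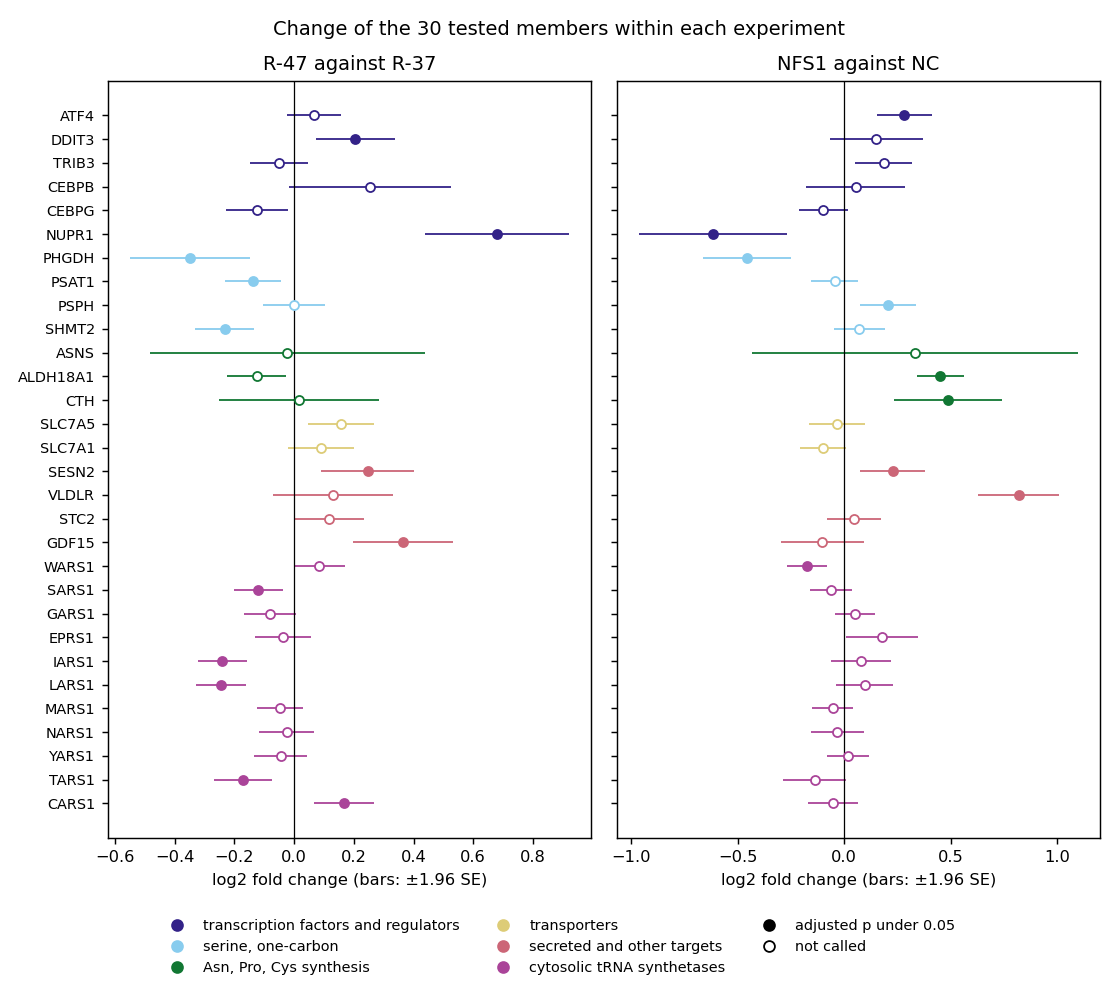
Log2 difference with its 95% interval for each tested member in R-47 against R-37 and in NFS1 against NC; filled symbols passed edgeR's test at an adjusted p under 0.05. NUPR1 lay above 0 for heat (0.68) and below 0 in the libraries labelled NFS1 (-0.62), and VLDLR and ALDH18A1 rose in the second comparison alone.

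The second comparison set the group labelled NFS1 knockdown beside NC, both after the 47 °C bath. Of the 30 tested members 6 were higher and 3 lower in the libraries labelled NFS1, against 28.1% of 15086 genes called (15.7% higher, 12.5% lower). The groups did not overlap for 5 members and for 21% of all genes. Higher were ATF4, ALDH18A1, CTH, VLDLR, PSPH and SESN2, and lower were PHGDH, NUPR1 and WARS1. The median log2 difference was 0.05 over the members and 0.02 over all genes. Synthetases contributed 0 higher and 1 lower of 11.

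ATF4 was 181, 176, 171, 176 and 174 CPM in NC and 214, 228, 229, 176 and 208 CPM in the libraries labelled NFS1. The 5 NC libraries lay close together; 4 of the NFS1 libraries lay above all of them and replicate 4 lay among them. The log2 difference was 0.28 (SE 0.07, adjusted p = 0.00606), and 0.34 without that replicate (SE 0.05, adjusted p = 1.95e-05). DDIT3 was 27.2, 30.9, 28.5, 31.9 and 28.0 CPM in NC and 31.6, 36.1, 37.3, 22.6 and 33.1 CPM in NFS1, with replicate 4 the lowest of all 10. Its log2 difference of 0.15 was not called (adjusted p = 0.339), and without replicate 4 it was 0.25 and called (adjusted p = 0.00867). NUPR1 was 18.4, 21.9, 27.0, 27.9 and 28.1 CPM in NC and 17.7, 17.2, 18.0, 8.48 and 18.0 CPM in NFS1. All NFS1 values were below all NC values, with a log2 difference of -0.62 (SE 0.18, adjusted p = 0.0184), or -0.46 without replicate 4 (adjusted p = 0.00198).

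ALDH18A1, which makes the common precursor of proline and ornithine from glutamate, was 43.8, 43.2, 46.6, 40.9 and 42.2 CPM in NC and 60.3, 55.8, 55.7, 59.7 and 60.9 CPM in NFS1. The groups were well separated, with a log2 difference of 0.45 (SE 0.06, adjusted p = 5.41e-05). CTH was 4.55, 4.87, 3.77, 5.74 and 5.51 CPM in NC and 5.64, 7.91, 7.23, 6.41 and 6.61 CPM in NFS1, with overlap of a single library and a log2 difference of 0.49 (SE 0.13, adjusted p = 0.0121). PHGDH was 63.7, 71.2, 83.5, 82.5 and 81.8 CPM in NC and 57.0, 59.7, 60.2, 40.2 and 58.0 CPM in NFS1. All NFS1 libraries were lower, replicate 4 the most, with a log2 difference of -0.46 (SE 0.11, adjusted p = 0.00533), and -0.37 without that replicate (adjusted p = 0.00051). PSPH, another serine enzyme, rose by 0.21 (adjusted p = 0.0357), while SHMT2 (0.07) and PSAT1 (-0.05) were not called.

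VLDLR showed the largest change of the members: 8.04, 9.92, 10.1, 8.47 and 11.4 CPM in NC and 16.2, 16.4, 15.4, 18.4 and 17.0 CPM in NFS1. No library overlapped, and the log2 difference was 0.82 (SE 0.10, adjusted p = 3.36e-05), or 1.76-fold. SESN2 rose by 0.23 (adjusted p = 0.0409); STC2 (0.04) and GDF15 (-0.10) were not called. WARS1, the tryptophan synthetase, was 123.5, 122, 122, 120.3 and 125 CPM in NC and 109, 104, 107, 113 and 103 CPM in NFS1, fully separate, with a log2 difference of -0.17 (SE 0.05, adjusted p = 0.0142). The transporters SLC7A5 (-0.04) and SLC7A1 (-0.10) were not called.

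Without NFS1 replicate 4, 9 members were higher and 4 lower (33.7% of 15255 genes called): TRIB3 (0.23, adjusted p = 0.00536), DDIT3 and CEBPB (0.17, adjusted p = 0.0121) joined the higher members and TARS1 (-0.21, adjusted p = 0.00541) the lower. The other calls without it were VLDLR at 0.78, CTH at 0.50, ALDH18A1 at 0.44, SESN2 at 0.27, PSPH at 0.20 and WARS1 at -0.20 (adjusted p 4.7e-06 to 0.0313). Leaving out other single libraries ended 2 calls. PSPH was lost without NC replicate 1, 3, 4 or 5 or NFS1 replicate 1, 3 or 5 (adjusted p 0.0595 to 0.105), and SESN2 without NC replicate 2, 3, 4 or 5 or NFS1 replicate 1, 2, 3 or 5 (0.0562 to 0.125). Of the 9 calls, 5 held in all 22 alternatives (ATF4, PHGDH, ALDH18A1, CTH and VLDLR). NUPR1 was lost in unfiltered FPKM (adjusted p = 0.0892), PSPH and SESN2 with no filter on counts (0.0815 and 0.0799), SESN2 also with DESeq2 size factors (0.0513) and in unfiltered FPKM (0.06), and PSPH, SESN2 and WARS1 with the replicate block (0.106, 0.103 and 0.0649). Summed fibroblast and stellate markers were 25.4 to 30.4 CPM per library in NC and 37.6 to 61.9 CPM in NFS1, with 3 of 6 at a mean of at least 1 CPM in both. Of the 4 tested markers 1 was called higher and 0 lower, with log2 differences from -0.434 to 0.785 (median 0.035). Their part in these results was not tested.

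Of the 25 further ATF4 targets 6 were higher and 4 lower in NFS1 (median 0.09), among them the glycine transporter SLC6A9 (0.74, SE 0.11, adjusted p = 0.000278) and the related factor ATF5 (-0.60, SE 0.07, adjusted p = 1.58e-05). Of the eIF2 list, 3 of 15 rose and 3 fell, with EIF2S1, the phosphorylated subunit, at -0.26 and EIF2B2 at -0.27. Of the remaining cytosolic synthetases 0 rose and FARSA, a phenylalanine subunit, fell (-0.27, adjusted p = 0.02). Of 17 mitochondrial synthetases 2 rose, FARS2 by 0.59 (adjusted p = 0.0011) and WARS2 by 0.56 (adjusted p = 0.0019), and 5 fell. Over all genes tested, 28.1% were called, and 33.7% without NFS1 replicate 4. Without NFS1 replicate 4 the further ATF4 targets were 8 higher and 5 lower, the eIF2 list 3 and 5, the remaining cytosolic synthetases 1 and 2 and the mitochondrial synthetases 2 and 5. The genes named here kept their calls, with SLC6A9 at 0.77, ATF5 at -0.55, EIF2S1 at -0.27, EIF2B2 at -0.26, FARSA at -0.20, FARS2 at 0.64 and WARS2 at 0.48.

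The changes in the 2 comparisons share no library, and their difference was tested in 1 fit of all 20 libraries. Of 30 members 10 differed (5 with a higher and 5 with a lower change after heat than in the libraries labelled NFS1), against 32.5% of 15822 genes called. NUPR1 had the largest difference (1.31, SE 0.24, adjusted p = 0.000181), rising in one and falling in the other. ALDH18A1 (-0.56, SE 0.07, adjusted p = 2.67e-06) and VLDLR (-0.68, SE 0.14, adjusted p = 0.00092) were called in NFS1 and not after heat. SHMT2 (-0.29, adjusted p = 0.00778), LARS1 (-0.33, adjusted p = 0.00203) and IARS1 (-0.31, adjusted p = 0.00594) were called after heat and not in NFS1, as was GDF15 (0.48, adjusted p = 0.0126). WARS1 (0.27), CARS1 (0.23) and SLC7A1 (0.20) completed the 10. The differences for ATF4 (-0.20, adjusted p = 0.0582), PHGDH (0.12, adjusted p = 0.584) and SESN2 (0.03, adjusted p = 0.854) did not pass. SLC7A1 lost its call in 14 of 20 cases of 1 library left out (adjusted p 0.0556 to 0.087), the exceptions being NC replicate 2, NFS1 replicates 1 and 4, R-37 replicates 2 and 4 and R-47 replicate 1, and CARS1 lost it without R-47 replicate 2 (adjusted p = 0.0516). Calls were gained by ATF4 without NFS1 replicate 4 (-0.26, adjusted p = 0.00216) or R-37 replicate 5 (-0.23, adjusted p = 0.0324), and by TRIB3 without either of these (adjusted p 0.0118 and 0.025) or without NC replicate 2, NFS1 replicate 3 or R-47 replicate 3 (0.043 to 0.0493). CTH gained one without NFS1 replicate 1 or R-47 replicate 4, PSPH without NC replicate 2, NFS1 replicate 2 or R-37 replicate 4, and EPRS1 without NFS1 replicate 1 (adjusted p 0.0329 to 0.0475 over the 3 genes).

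**Figure D4:**
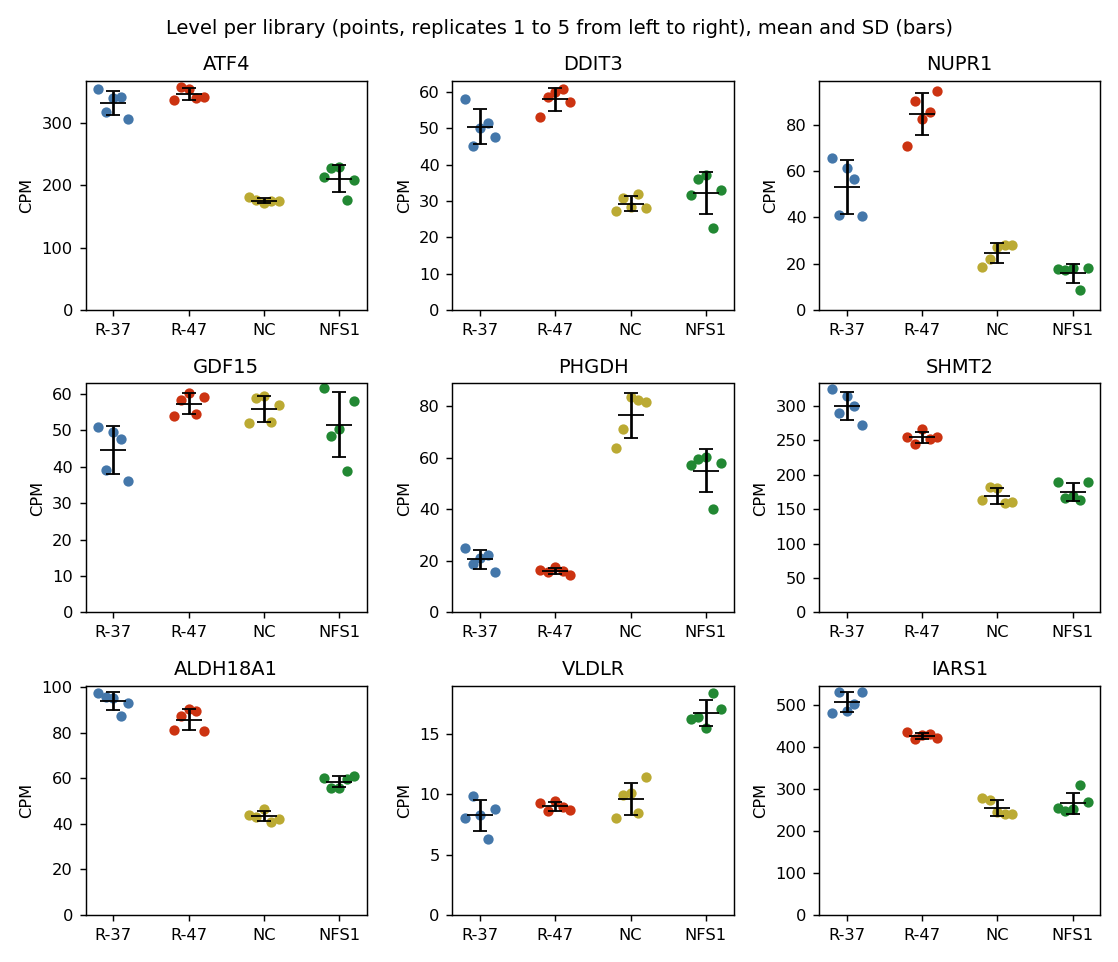
CPM of 9 members in each of the 20 libraries, as points with the group mean and SD (n = 5). ATF4 lay between 306 and 358 CPM in the first experiment and between 171 and 229 CPM in the second, and the low NUPR1 and PHGDH points among the NFS1 libraries are replicate 4.

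NC and R-47 carry the same labels for cell line, genotype and heat and come from the 2 experiments, so their difference cannot be told apart from that between the experiments. Each shares its libraries with 1 of the comparisons above. Most of the tested members were lower in NC: 24 of 30 were lower and 3 higher, where 79.7% of 15080 genes were called (40.1% higher, 39.6% lower). For 25 members the groups did not overlap, as for 67.3% of all genes. The median log2 difference was -0.72 over the members and 0.01 over all genes, and the median size regardless of sign was 0.75 and 0.54. All 6 regulators were lower (median -0.98), as were ASNS, ALDH18A1 and CTH, and both transporters; the synthetases were 8 lower and 2 higher of 11 (median -0.41). PHGDH, SARS1 and WARS1 were the 3 higher members. With library size alone, which moved the median of all genes by 0.18, 20 members were lower and 6 higher.

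ATF4 was 338, 358, 355, 340.3 and 342 CPM in R-47 and 181, 176, 171, 176 and 174 CPM in NC, a log2 difference of -0.97 (SE 0.04, adjusted p = 5.54e-16), or 1.97-fold lower. Its partners and targets among the regulators lay close to it: TRIB3 at -0.98, DDIT3 at -0.98, CEBPG at -0.77 and, further out, NUPR1 at -1.77. CEBPB (-0.25) had the smallest difference of the 6 and was not called in 5 of the alternative settings. SLC7A5 had the smallest adjusted p of the members: 644.5, 643.5, 715, 655 and 657 CPM in R-47 and 192, 194, 220.3, 204 and 214 CPM in NC, a log2 difference of -1.69 (SE 0.05, adjusted p = 1.52e-18). The arginine and lysine transporter SLC7A1 had -0.24 (SE 0.05, adjusted p = 0.00016).

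The serine enzymes split. PHGDH was 16.6, 15.9, 17.5, 16.0 and 14.6 CPM in R-47 and 63.7, 71.2, 83.5, 82.5 and 81.8 CPM in NC, 4.77-fold higher (log2 difference 2.25, SE 0.07, adjusted p = 3.55e-17). The next enzymes of the same route were lower, PSAT1 at -0.71 and PSPH at -1.28 on the log2 scale, as was SHMT2 at -0.58. ASNS had -1.61 (SE 0.30, adjusted p = 5.52e-05) at its low counts.

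The synthetases spread over a range of -1.41 to 0.37 on the log2 scale. YARS1, for tyrosine, was 218.5, 242, 239, 236 and 224 CPM in R-47 and 89.9, 89.9, 85.9, 82.9 and 85.8 CPM in NC, with -1.41 (SE 0.04, adjusted p = 1.22e-17). EPRS1, the fused glutamate and proline enzyme, was 249.8, 253, 242, 269.8 and 248 CPM in R-47 and 123.5, 116.5, 113, 109 and 109 CPM in NC, with -1.14 (SE 0.05, adjusted p = 8.57e-16). MARS1 was 316, 324, 341, 328 and 325 CPM in R-47 and 163, 168, 173, 159 and 169 CPM in NC, with -0.97 (SE 0.04, adjusted p = 1.31e-15). In all 3 the groups lay far apart relative to their spread. GARS1 (-0.86), IARS1 (-0.74), CARS1 (-0.41), TARS1 (-0.26) and NARS1 (-0.24) were lower, LARS1 (-0.04) was not called, and SARS1 (0.37) and WARS1 (0.12) were higher. With library-size scaling, LARS1 and GDF15 (-0.03) changed sign to 0.14 and 0.15 and were called higher by edgeR's test (adjusted p = 0.00329 and 0.0124). VLDLR (0.28, adjusted p = 0.0115) was called higher there as well, and the calls of NARS1, TARS1, SLC7A1 and CEBPB ended. The calls of WARS1 and CTH ended in other settings (adjusted p up to 0.619 with the length and GC offsets and 0.101 in unfiltered FPKM). Of the 27 calls, 21 held in every alternative that gave the gene a value, and leaving out 1 library changed no member's call. ASNS is among the 21 but had no value at a minimum count of 50 or in the FPKM fits with a minimum mean.

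Set beside the promoter sequences, the 9 tested members with the element were all lower in NC (median -0.74), including the 6 synthetases printed above (median -0.57). Over all genes tested, 39.6% were lower and 40.1% higher. NARS1, TARS1 and SLC7A1 among the 9 lost that call with library size alone. Genes outside the members that hold the element were not counted here, and the members were chosen with earlier results known. Of the 16 members with a window but no element, 11 were lower and 3 higher (median -0.61). Among synthetases without it, EPRS1 was lower and SARS1 and WARS1 were higher. The 5 tested members with no window (NUPR1, PSPH, SHMT2, LARS1 and YARS1) were 4 lower and 0 higher. Their median of -1.28 was further below 0 than that of the members with the element. Whether these 5 carry the element was not examined. These counts describe a small set and were not tested.

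**Figure D5:**
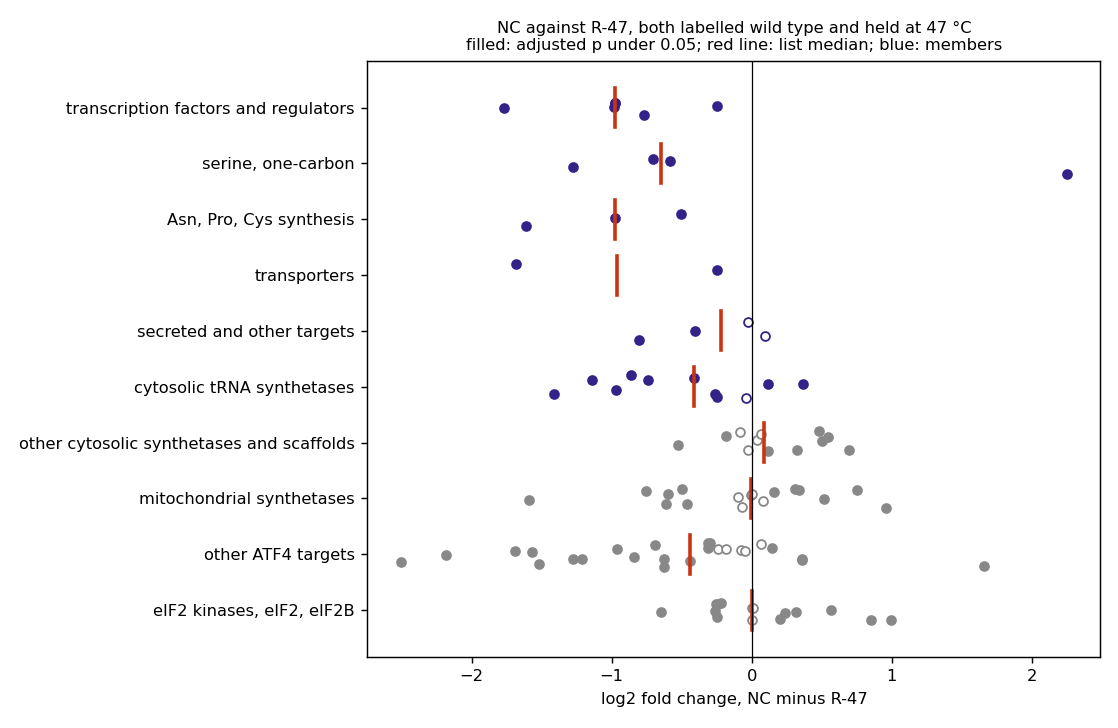
Log2 difference of NC minus R-47 for each gene of the member groups and the 4 other lists, with the median of each list as a bar. The 6 regulators all lie below 0 and their median is -0.98, whereas the medians of the other cytosolic synthetases (0.09) and the mitochondrial synthetases (0.00) lie near 0.

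The other lists differed in their counts. Of all 15080 genes, 79.7% were called in this contrast (40.1% higher, 39.6% lower). The share called was 80% of the further ATF4 targets and 80% of the eIF2 list. It was 66.7% of the remaining cytosolic synthetases and scaffolds and 70.6% of the mitochondrial synthetases. Of the 25 further ATF4 targets 16 were lower and 4 higher in NC (median -0.44), among them XPOT, the tRNA exporter (-0.84, SE 0.04, adjusted p = 4.46e-14), and SLC1A4, a neutral amino acid transporter (-1.28, SE 0.06, adjusted p = 4.75e-14). The eIF2 list was 6 higher and 6 lower of 15 (median 0.00), with EIF2S1 at 1.00 and EIF2B2 at 0.85. The 12 remaining cytosolic synthetases and scaffolds were 6 higher and 2 lower (median 0.09), with KARS1 at 0.70 and AARS1 at -0.53. Over all 20 cytosolic synthetases, members included and scaffolds left out, 10 were lower and 6 higher (median -0.13). The 17 mitochondrial synthetases were 6 higher and 6 lower (median 0.00), from FARS2 at -1.59 to LARS2 at 0.96. Summed bile duct markers (4 of 5 in the table) were 437 to 477 CPM per library in R-47 and 12.3 to 15.5 CPM in NC, with 3 and 2 at a mean of at least 1 CPM, and hepatocyte markers 62.5 to 70.3 and 125 to 135 CPM, with 6 and 4 of 8; of these, 2 were called higher in NC (FGB and APOB) and 4 lower. These moved with the same contrast, and their part in the members' levels was not tested.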

How the data were processed

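PolyA RNA of 20 libraries in 4 groups of 5 was measured; per the labels' protocols, TRIzol was used for extraction and the VAHTS Universal V6 kit for libraries. The submitters' processing notes name hg38 with fastp, HISAT2 and HTSeq; versions, annotation, counting mode and strand are not given in the sources that were used. The authors deposited whole-number counts per gene symbol, not normalised, and FPKM, which equal count over 1 length per gene over library total and so carry library-size scaling alone. Columns were matched to samples by title.

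Each comparison was fitted on its own 2 groups, and the difference of the 2 changes on all 20 libraries. Genes passed edgeR's filterByExpr (minimum count 10), were scaled by TMM and tested with edgeR's quasi-likelihood test, with Benjamini-Hochberg adjustment over all genes at 0.05. Log2 differences are the second-named group subtracted from the first-named; the SE is the log2 difference over the square root of F. Values per library of single genes are CPM scaled over all 20 libraries, so their ratios need not equal the fitted change exactly. Summed cell type markers, and counts of markers with a mean of at least 1 CPM, used CPM scaled by library total without TMM. Depth was 32219946 to 39689939 counts per library, and no 2 libraries held identical counts. The scripts for the count tests were checked on simulated data.

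The members and lists were chosen with earlier results of these data known. Values in every library are given for ATF4, DDIT3 and the 6 members of smallest adjusted p in each comparison; of the other lists, the 2 called genes of smallest adjusted p are named. Alternatives were DESeq2 and its size factors, library size alone, other filters, limma-voom, a single fit of all 20 libraries, a replicate block, limma fits of log2 FPKM (pseudocount 1 or 0.1, and 1 without the minimum mean FPKM of 1), offsets for gene length and GC content, and each library left out. R 4.3.3, edgeR 4.0.16, limma 3.58.1, DESeq2 1.42.0 and Python 3.11.15 were used.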

Additional observations from a re-analysis of the deposited data

Results flagged for a closer look

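In each group of 5, a member's highest or lowest library was singled out where its gap to the nearest other library exceeded 0.71 of the whole range. Of 127 sets of 5 values examined, 14 were singled out, and chance gives about 1 in 20. Replicate 4 of NFS1 accounted for 7 of the 14. In CPM, it was low in CEBPB (65.6, the others 106 to 117), NUPR1 (8.48, the others 17.2 to 18.0) and PHGDH (40.2, the others 57.0 to 60.2). It was high in the synthetases GARS1 (183, the others 169 to 173), LARS1 (192, the others 152 to 161), NARS1 (248.5, the others 209 to 214) and TARS1 (186, the others 145 to 152). R-47 replicate 3 was high in SLC7A5 (715 CPM, the others 643.5 to 657) and in SARS1 (126 CPM, the others 123.7 to 124.2), and R-47 replicate 1 was low in SLC7A1 (72.6 CPM, the others 83.2 to 85.4).

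The remaining 4 rest on 1 to 3 counts in a single library, with the other 4 at 0: MTHFD2 in NFS1 replicate 1 (0.0765 CPM), PYCR1 in R-47 replicate 3 (0.0545 CPM), and FGF21 in R-47 replicate 2 (0.0281 CPM) and NC replicate 2 (0.0256 CPM).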

How the results depend on the processing

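Members called higher after heat (5) became 10 with library size alone, 9 in each of the 3 fits of log2 FPKM, 3 with the replicate block, 3 with length and GC offsets, and 2 to 7 with 1 library left out. Members called lower (7) became 3 with library size alone and in the 3 FPKM fits, 12 with the offsets, and 3 to 6 with 1 library left out. Over all genes, 1714 higher became 2977 with library size alone and 2608 in unfiltered FPKM, and 1890 lower became 1013 with library size alone, 839, 841 and 827 in the FPKM fits and 3237 with the offsets. In NFS1 against NC the offsets raised the members called lower from 3 to 6 and genes called lower from 1881 to 3282. In NC against R-47 members called higher went from 3 to 6 with library size alone and in 2 FPKM fits and to 5 in unfiltered FPKM, and genes called lower from 5978 to 3741 and 3734 in the filtered FPKM fits. Members with a higher change after heat than in NFS1 were 3 to 5 with 1 library left out. The FPKM fits and library size alone share their scaling; the cause of the other shifts was not tested.

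None of the log2 differences that changed sign had been called. After heat these were, with library size alone, ASNS 0.053, EPRS1 0.039, MARS1 0.029, NARS1 0.051, PSPH 0.076, TRIB3 0.026 and YARS1 0.032. In log2(FPKM + 1), filtered or not, EPRS1 was 0.039, MARS1 0.029, NARS1 0.051, PSPH 0.072, TRIB3 0.027 and YARS1 0.031, and ASNS was 0.010 unfiltered. In log2(FPKM + 0.1), EPRS1 was 0.039, MARS1 0.029, NARS1 0.052, PSPH 0.077, TRIB3 0.027 and YARS1 0.031. With the offsets ASNS was 0.0054, EPRS1 0.086 and NARS1 0.010. PSPH was 0.0046 with DESeq2, 0.0050 with its size factors, 0.014 at a minimum count of 50 and 0.0007 with the replicate block. In NFS1 against NC, IARS1 was -0.028 and LARS1 -0.017 with the offsets, and YARS1 -0.0012 in 1 fit of all libraries. In NC against R-47, GDF15 was 0.15 with library size alone and in the 3 FPKM fits and 0.015 at a minimum count of 50. LARS1 was 0.14 with library size alone and in the FPKM fits, 0.0046 at that minimum and 0.063 with the offsets. Both genes were called higher with library size alone and in the 3 FPKM fits. With 1 library left out, the ranges after heat were -0.026 to 0.022 for PSPH, -0.17 to 0.086 for ASNS, -0.080 to 0.098 for CTH and -0.045 to 0.011 for NARS1. In NFS1 against NC they were -0.0085 to 0.17 for CEBPB, -0.061 to 0.55 for ASNS, -0.073 to 0.019 for SLC7A5 and -0.0029 to 0.026 for YARS1, and in NC against R-47 -0.056 to 0.0025 for GDF15.

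Same-numbered libraries showed little shared deviation (correlations of -0.112 to 0.109 after heat, -0.231 to 0.082 in NFS1 against NC and -0.008 to 0.149 in NC against R-47). These values cannot show whether same-numbered libraries were handled together. With the replicate block, members were called 3 higher and 5 lower after heat, 4 and 2 in NFS1 against NC and 3 and 24 in NC against R-47; CARS1, DDIT3, PSAT1 and SARS1 lost their calls after heat, and PSPH, SESN2 and WARS1 in NFS1 against NC. Of the 655 member values recomputed after heat, 511 kept direction and side of the threshold, of 657 in NFS1 against NC 613, and of 657 in NC against R-47 620. MTHFD2, PYCR1 and FGF21, with at most 3 counts in a library, passed only the settings with no filter, in which 32 or 33 members were tested, and ASNS had at most 57 counts; why these counts are low was not tested.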
